A study of Mus musculus with 6 samples.

Results

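The genes described here are 7 that encode the atrial and fetal versions of contractile proteins or control them, of 33696 genes counted: Myl7 (ENSMUSG00000020469), Myl4 (ENSMUSG00000061086), Sln (ENSMUSG00000042045), Tpm2 (ENSMUSG00000028464), Myh7 (ENSMUSG00000053093), Acta1 (ENSMUSG00000031972) and Tbx5 (ENSMUSG00000018263). They were picked out by symbol with their levels in these libraries already known, so their levels are given as a description and support nothing by a test. RNA of single nuclei from the left ventricle was sequenced, in 12-week-old males, with 2 libraries in each of 3 groups. WT-CD mice were wild-type littermates on control diet (CD). R403Q-CD mice ate the same diet and had the R403Q change in their cardiac myosin heavy chain, which models hypertrophic cardiomyopathy. R403Q-EMPA mice had that change too, and their diet held empagliflozin (EMPA), which blocks the sodium-glucose cotransporter of the kidney, at 0.15 mg/g of diet or about 15 mg/kg body weight. Diets began at 9 to 10 weeks of age by the labels. The diet length they also give would not fit before 12 weeks, and it is left out here for that reason. The labels do not say how many animals stand behind a library, so the spread between libraries may be biological or technical.

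Of 69249 barcodes, 45987 nuclei passed the filters, and 6993 of them were taken as cardiomyocyte nuclei because Ttn, Ryr2 and Myh6 together held at least 1.5% of their unique molecular identifiers (UMIs). There were 1126 and 723 of them for WT-CD (replicates 1 and 2), 986 and 981 for R403Q-CD, then 1564 and 1613 in R403Q-EMPA, with 8508326 to 14361800 UMIs per library and medians of 6853 to 12084 UMIs per nucleus. The share of nuclei that met this rule was 11.9% and 9.49% for WT-CD, 13.0% and 14.1% for R403Q-CD, then 19.7% and 25.2% for R403Q-EMPA. Between 11 and 46 nuclei per library lay just above the threshold, at 1.5% to 2%, and 18 to 63 just below it, at 1% to 1.5%. Any 2 libraries shared 9 to 30 barcodes. Levels are CPM, the UMIs of a gene over the nuclei summed, scaled to the same UMI total in every library. Counts from the 3′ end are not scaled to gene length, so a level is compared between libraries and not between genes, and where the UMIs of a pair of genes are set against each other only the change of that share between libraries is meant.

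In the mouse, the working muscle of the adult ventricle builds its thick filament from the myosin heavy chain Myh6 with the light chains Myl2 and Myl3, and its thin filament from the actin Actc1 and the tropomyosin Tpm1. The atria use the light chains Myl7 and Myl4 and regulate the calcium pump SERCA with sarcolipin (Sln), where the ventricle uses phospholamban (Pln). The fetal ventricle uses Myh7, Acta1, Tpm2 and Myl4, and some of these genes are known to return in the hypertrophied adult heart. Tbx5 is a T-box transcription factor of the atria and the left ventricle.

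RefSeq promoter windows of the GRCm38.p6 assembly, from 250 bases before to 50 after the annotated start, were found for 5 of the 7 genes. The windows of Myl7, Acta1 and Tpm2 are shown because these are the 3 genes whose mean level was furthest above WT-CD among those with UMIs in every group. Capitals mark the matches to 4 motifs searched on both strands: the CArG box bound by serum response factor, GATAAG bound by GATA factors, the TATA motif TATAAA and the T-box motif AGGTGT. Myl7 lies at chr11:5898733-5899032 on the minus strand, Acta1 at chr8:123894726-123895025 on the minus strand and Tpm2 at chr4:43523505-43523804 on the minus strand, and all are written 5′ to 3′ along the gene.
Myl7: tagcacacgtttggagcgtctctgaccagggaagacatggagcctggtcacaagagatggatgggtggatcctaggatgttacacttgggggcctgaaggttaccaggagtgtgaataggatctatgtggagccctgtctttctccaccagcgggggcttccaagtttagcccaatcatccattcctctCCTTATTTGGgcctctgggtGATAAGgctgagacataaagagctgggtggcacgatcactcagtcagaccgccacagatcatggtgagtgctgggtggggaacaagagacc
Acta1: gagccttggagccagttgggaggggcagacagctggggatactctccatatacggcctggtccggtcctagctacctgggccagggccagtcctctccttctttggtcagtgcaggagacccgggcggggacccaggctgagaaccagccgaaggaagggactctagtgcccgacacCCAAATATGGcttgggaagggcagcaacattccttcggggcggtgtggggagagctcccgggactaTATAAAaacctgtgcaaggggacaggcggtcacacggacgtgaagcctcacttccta
Tpm2: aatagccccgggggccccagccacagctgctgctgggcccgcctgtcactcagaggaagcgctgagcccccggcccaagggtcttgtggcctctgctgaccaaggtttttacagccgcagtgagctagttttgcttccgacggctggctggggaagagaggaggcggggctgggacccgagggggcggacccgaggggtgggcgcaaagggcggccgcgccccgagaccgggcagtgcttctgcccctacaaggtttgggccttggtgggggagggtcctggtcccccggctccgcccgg

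The Myl7 window held a CArG box at bases 190 to 199 and a GATAAG at bases 210 to 215, counted from 1 at the 5′ end of the window. The Acta1 window held a CArG box at bases 178 to 187 and a TATAAA at bases 244 to 249, and none of these matches overlapped another. None of the 4 motifs was found in the windows of Tpm2, Myl4 or Myh7. Of 32851 windows of this length, 1.63% held a CArG box, 7.44% a GATAAG, 13.6% a TATAAA and 13.7% an AGGTGT. The Tpm2 window had 70.3% G and C, against 53.7% for Myl7, 61.0% for Acta1 and a median of 52.7% over all windows.

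The atrial light chain Myl7 was almost absent from WT-CD and R403Q-CD cardiomyocyte nuclei and was found in both R403Q-EMPA libraries. Its UMIs numbered 3 and 0 for WT-CD, 2 and 2 for R403Q-CD, then 87 and 34 for R403Q-EMPA, or 0.353, 0, 0.197, 0.170, 6.06 and 2.94 CPM in that order. Both R403Q-EMPA libraries lay above all 4 others, which were at or near the 3 UMIs that a count of 0 allows. With the libraries of a group pooled, 121 UMIs in R403Q-EMPA stood against 4 in R403Q-CD, a ratio of 25.5 with an exact 95% counting interval of 9.73 to 95.3. This interval covers counting error only, not the spread between libraries. Nuclei with a Myl7 UMI numbered 3, 0, 2 and 2 in the WT-CD and R403Q-CD libraries and 38 and 3 in R403Q-EMPA, so the second R403Q-EMPA library owed its 34 UMIs to 3 nuclei.

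Myl4, the atrial essential light chain, was measured in every library at a low level, which in WT-CD and R403Q-CD was near its level in the nuclei that are not cardiomyocyte nuclei. It gave 4.58 and 5.04 CPM in WT-CD, 4.83 and 5.02 in R403Q-CD, then 11.1 and 7.53 in R403Q-EMPA, so the first 2 groups overlapped and both R403Q-EMPA libraries were higher. Group means were 4.81 ± 0.322, 4.93 ± 0.138 and 9.30 ± 2.51 CPM (SD, n = 2). The fitted log2 difference was 0.01 ± 0.27 (SE) for R403Q-CD against WT-CD and 0.85 ± 0.26 for R403Q-EMPA against R403Q-CD. Sln, the atrial regulator of SERCA, gave no UMI in any WT-CD or R403Q-CD cardiomyocyte nucleus and 15 and 2 UMIs in R403Q-EMPA. The limit set by 3 UMIs was 0.255 to 0.353 CPM in the libraries without Sln, the first R403Q-EMPA library lay above it at 1.04 CPM and the second below it at 0.173, and no fold is given.

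Tpm2, the beta chain of tropomyosin, separated the R403Q-EMPA libraries from the others with more UMIs than Myl7 or Sln. Its UMIs numbered 16 and 18 for WT-CD, 19 and 15 for R403Q-CD, then 243 and 105 for R403Q-EMPA. As CPM these were 1.88 and 2.06, then 1.87 and 1.28, then 16.9 and 9.08. The lower R403Q-EMPA library was thus above the highest of the 4 others, while R403Q-CD lay just below WT-CD. Means over a group in the same order were 1.97 ± 0.128, 1.57 ± 0.421 and 13.0 ± 5.54 CPM (SD, n = 2). The pooled ratio of R403Q-EMPA to R403Q-CD was 8.64 with a counting interval of 6.07 to 12.7. A Tpm2 UMI was found in 1.15% and 1.38% of WT-CD, 1.12% and 0.714% of R403Q-CD, and 6.27% and 2.48% of R403Q-EMPA cardiomyocyte nuclei. With each nucleus thinned to 1000 UMIs the shares were 0.186% and 0.206%, 0.190% and 0.193%, and 1.48% and 0.712%, in the same order.

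Acta1, the skeletal form of alpha-actin, was higher in both groups with the mutation than in WT-CD. It gave 18.1 and 20.8 CPM in WT-CD, 27.0 and 46.2 in R403Q-CD, then 69.4 and 30.3 in R403Q-EMPA. Neither group with the mutation overlapped WT-CD, but they overlapped each other. The fitted log2 difference was 0.88 ± 0.35 (SE) for R403Q-CD against WT-CD, 1.27 ± 0.35 for R403Q-EMPA against WT-CD and 0.39 ± 0.34 for R403Q-EMPA against R403Q-CD. The last of these was decided by single libraries, since it was -0.28 without R403Q-EMPA replicate 1, 0.07 without R403Q-CD replicate 1 and 0.81 without R403Q-CD replicate 2. An Acta1 UMI was found in 8.53% and 12.0% of WT-CD, 14.8% and 22.0% of R403Q-CD, and 25.9% and 11.3% of R403Q-EMPA cardiomyocyte nuclei.

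Myh7, the slow myosin heavy chain of the fetal ventricle, did not separate the groups by CPM. It lay at 517 and 361 CPM in WT-CD, 412 and 394 in R403Q-CD, then 421 and 338 in R403Q-EMPA, and the 2 WT-CD libraries were further apart than any 2 group means. A Myh7 UMI was found in 93.6% and 91.3% of WT-CD, 90.3% and 88.1% of R403Q-CD, and 85.7% and 81.3% of R403Q-EMPA cardiomyocyte nuclei. This raw share fell from group to group without overlap. With each nucleus thinned to 1000 UMIs the shares were 38.7% and 29.3%, 32.9% and 30.6%, and 31.9% and 26.7%, and the groups overlapped. Tbx5 lay at 67.5 and 84.0 CPM in WT-CD, 72.0 and 77.3 in R403Q-CD, then 74.6 and 58.0 in R403Q-EMPA, again with all groups overlapping. Fitted log2 differences between groups ran from -0.26 to -0.13 for Myh7 and from -0.27 to -0.05 for Tbx5, with SE of 0.18 each. Both genes were found in WT-CD at these levels, so among the 7 genes they did not mark the mutation or the treatment by CPM in cardiomyocyte nuclei.

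**Figure D1:**
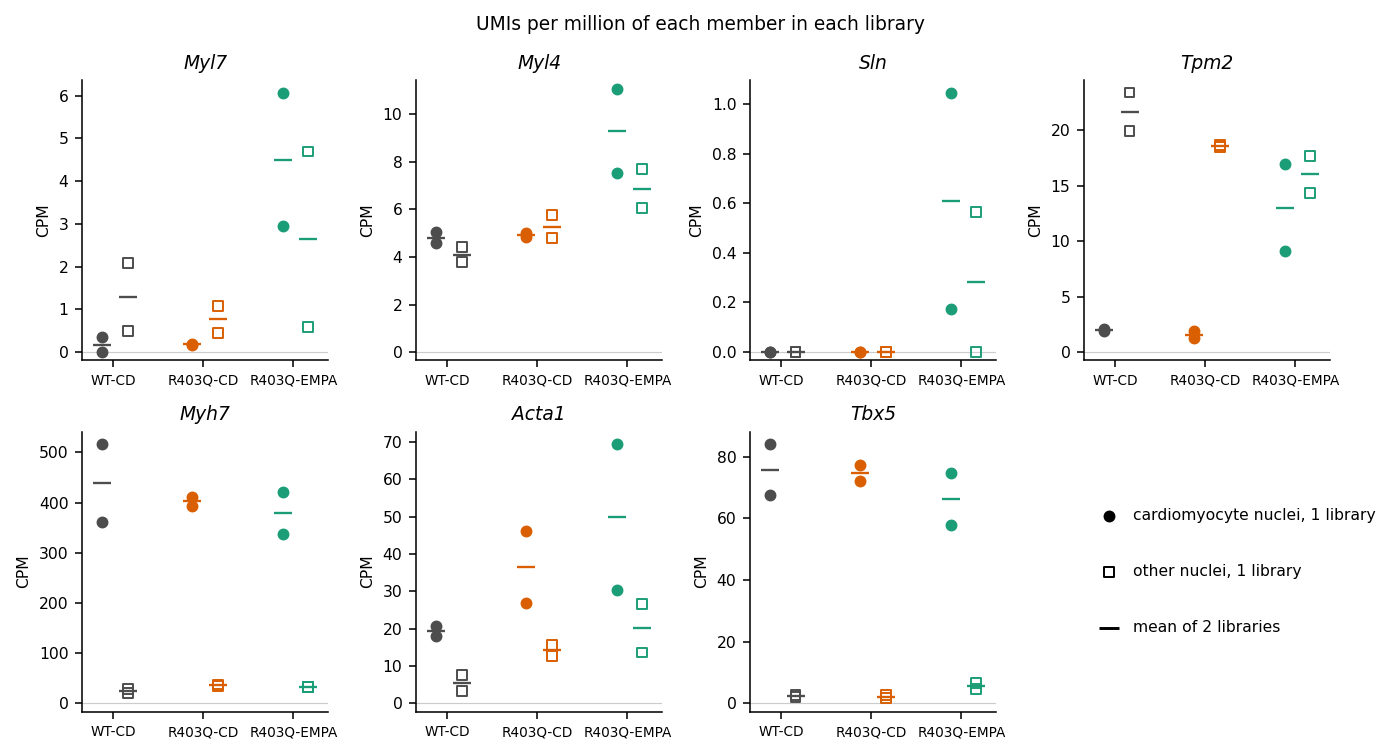
Level (CPM, vertical axis, a separate linear scale for each gene) in the 3 groups, with filled circles for cardiomyocyte nuclei, open squares for other nuclei, 1 point per library, and bars for the mean of 2 libraries. In cardiomyocyte nuclei Myl7, Myl4 and Tpm2 lie higher in both R403Q-EMPA libraries than in all others, Sln does so beyond the limit of 3 UMIs in replicate 1 alone, Acta1 lies lowest in WT-CD, and Myh7 and Tbx5 overlap between groups.

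Counted over the 7 genes, Acta1 (1 gene) lay above both WT-CD libraries in each R403Q-CD library and Tpm2 (1 gene) below them. For R403Q-EMPA against R403Q-CD, 4 lay higher (Myl7, Myl4, Sln and Tpm2) and 0 lower, and against WT-CD 5 lay higher (the same 4 and Acta1) and 0 lower. These counts take values as they stand, and Sln enters them with only 2 UMIs in R403Q-EMPA replicate 2, under the limit that a count of 0 allows in the other libraries. Among all 14496 genes tested, the corresponding shares were 19.5% higher and 14.2% lower, 30.1% higher and 21.8% lower, and 26.7% higher and 18.8% lower. Since these values chose the genes, nothing is read from the counts. The quasi-likelihood test of edgeR called 9 genes for R403Q-CD against WT-CD, 30 for R403Q-EMPA against R403Q-CD and 565 for R403Q-EMPA against WT-CD, at an adjusted p under 0.05, or 0.0621%, 0.207% and 3.90% of genes tested. Of the 7 genes, 0, 2 and 2 were among these calls, namely Tpm2 and Myl7 against either other group, which adds nothing because the same values chose them. Against R403Q-CD both calls were lost without either R403Q-CD library and without R403Q-EMPA replicate 1, and against WT-CD both were lost without R403Q-EMPA replicate 1. Sln did not pass the filter on low counts, and Myl7 passed it only through R403Q-EMPA. The comparisons share groups, so they are not independent of each other.

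The ventricular counterparts of these proteins were read in the same nuclei. None of Myl2, Myl3, Pln, Tpm1, Myh6 and Actc1 was called by edgeR in any comparison, with adjusted p of 0.110 or more. The nearest was Tpm1, at 3802 and 2785 CPM in WT-CD, 2245 and 2505 in R403Q-CD, then 2371 and 1688 in R403Q-EMPA, a log2 difference of -0.76 ± 0.23 (SE) for R403Q-EMPA against WT-CD with the adjusted p of 0.110. All 4 libraries with the mutation lay below WT-CD in Tpm1, which enters the share of Tpm2 as well. Tpm2 made up 0.0494% and 0.0740% of the UMIs of Tpm2 and Tpm1 together in WT-CD, 0.0833% and 0.0510% in R403Q-CD, then 0.709% and 0.535% in R403Q-EMPA. Myl7 made up 0.0380% and 0% of the UMIs of Myl7 and Myl2 in WT-CD, 0.0217% and 0.0201% in R403Q-CD, then 0.697% and 0.303% in R403Q-EMPA. For both pairs all 4 other libraries lay below R403Q-EMPA. For Acta1 of Acta1 and Actc1 the share was 1.69% and 2.85%, 2.95% and 4.76%, and 5.75% and 4.29%, so WT-CD lay below both groups with the mutation. For Myh7 of Myh7 and Myh6 it was 6.33% and 3.72% in WT-CD, and 4.14% to 4.72% in the 4 libraries with the mutation, all inside the WT-CD range.

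**Figure D2:**
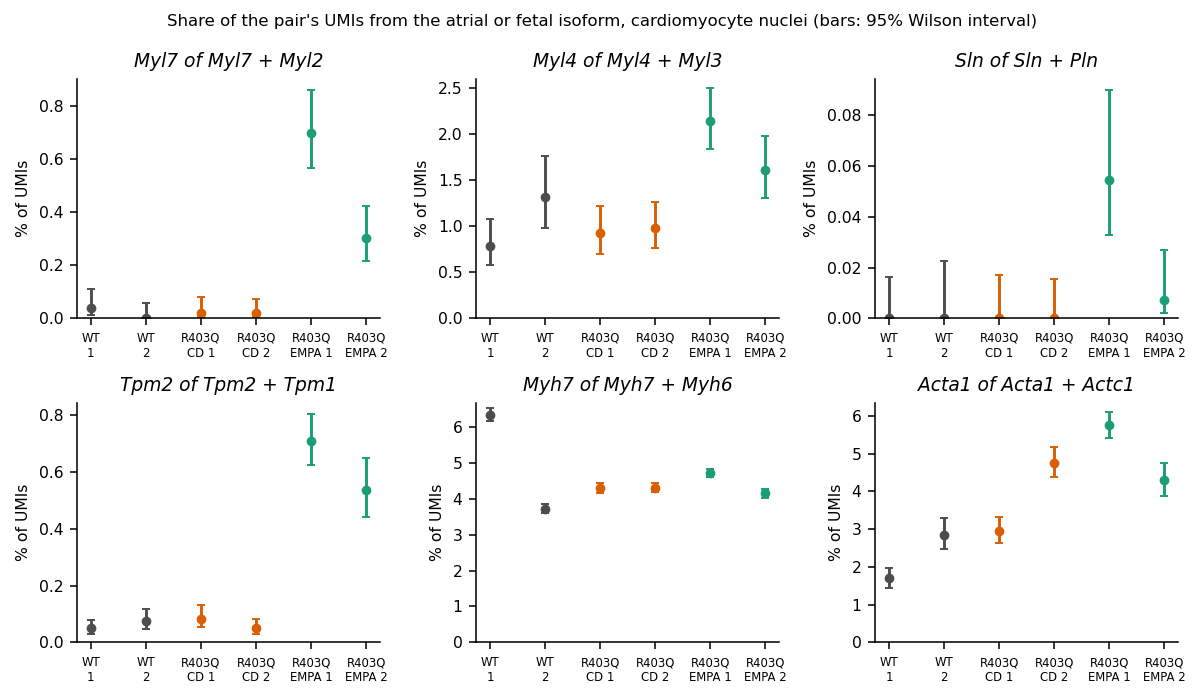
Percent of the UMIs of a pair that came from its atrial or fetal gene (vertical axis) in the cardiomyocyte nuclei of each library (horizontal axis), with 95% Wilson intervals for counting error. The shares of Myl7 and Tpm2 lie above all other libraries in both R403Q-EMPA libraries yet stay under 1%, and the share of Myh7 is highest in WT-CD replicate 1, at 6.33%.

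Most UMIs of Myl7 and Sln in R403Q-EMPA came from a few nuclei. Nuclei with UMIs of at least 2 of Myl7, Myl4 and Sln numbered 0 in each WT-CD and R403Q-CD library, which allows a share of nuclei with such UMIs of up to 0.266% to 0.415% per library by counting error alone, and 14 of 1564 and 1 of 1613 in R403Q-EMPA. The 14 nuclei held 67.8% of the Myl7, 40.3% of the Myl4 and 86.7% of the Sln UMIs of their library, and the single nucleus of the second library held 30 of 34 Myl7 UMIs, 29 of 87 Myl4 UMIs and both Sln UMIs. Without these 15 nuclei, Myl7 was left at 1.96 and 0.346 CPM and Myl4 at 6.65 and 5.02 CPM in the R403Q-EMPA libraries. The nuclei were chosen by these UMIs, so a fall of Myl7, Myl4 and Sln on leaving them out is fixed by the choice, and only what is left is described. The rest of Myl4 in R403Q-EMPA replicate 2 lay at the level of WT-CD and R403Q-CD, and the rest of Myl7 in replicate 1 lay above it. Tpm2, which did not enter the choice, was at 87.3 CPM in the 14 nuclei and 16.5 CPM in the rest of replicate 1, and 4 of the 14 had a Tpm2 UMI. Since the 14 are few, they held 2.88% of the Tpm2 UMIs of that library, and the log2 difference of Tpm2 between R403Q-EMPA and R403Q-CD was 2.85 without them in place of 2.87.

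**Figure D3:**
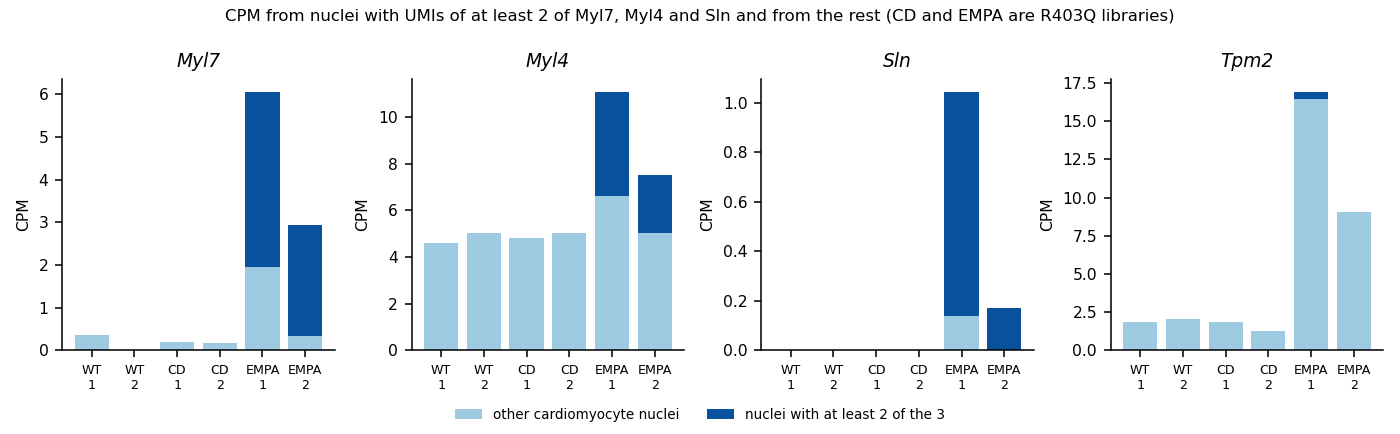
CPM of Myl7, Myl4, Sln and Tpm2 (vertical axis, linear from 0) in the cardiomyocyte nuclei of each library, with the dark part of a bar from nuclei that had UMIs of at least 2 of Myl7, Myl4 and Sln and the light part from all the rest. In R403Q-EMPA most of the Myl7 and Sln bars is dark, and the dark part of Tpm2, which did not enter the choice of nuclei, is 2.88% of its UMIs in replicate 1 and 0% in replicate 2.

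Of the 14 nuclei of R403Q-EMPA replicate 1, 9 also had UMIs of Fgf12, Mybphl or Dkk3, other genes of atrial muscle, and 5 had none of them. The single nucleus of replicate 2 had none of these and none of Nppa, but 5 UMIs of the conduction marker Cntn2. Mybphl gave 22 UMIs in the 14 nuclei and 1 in all other cardiomyocyte nuclei of the library, and their levels of Fgf12, Dkk3, Kcnj3 and Pam were 4178, 237, 2170 and 4540 CPM, beside 4.7, 2.73, 336 and 925 CPM in those others. Of the 10 atrial markers listed, Bmp10 gave no UMI in any library, and levels of Stard10, Nr2f1 and Sbk2 are not given here. When nuclei with UMIs of at least 2 of Bmp10, Mybphl, Stard10, Nr2f1 and Sbk2 were left out, 1561 of the 1564 cardiomyocyte nuclei of replicate 1 remained. Nppa, the atrial natriuretic peptide, was at 1347 CPM in them and 1499 CPM in the others. Of the 8 markers of ventricular muscle listed, Myl2 was lower at 175 beside 866 CPM, Myl3 at 262 beside 506 and Fhl2 at 2257 beside 5388. The rest of that list is not given here. Of the 10 conduction system markers, Cntn2 was higher at 112 beside 6.16 CPM, Cpne5 at 262 beside 5.95, Tbx3 at 49.9 beside 5.04, Scn10a at 49.9 beside 1.40 and Shox2 at 24.9 beside 0.0700. The levels of Tbx3, Scn10a and Shox2 in the 14 nuclei rest on few UMIs. The rest of that list is not given here, so nothing is read for the list as a whole. Ryr3 was at 1085 CPM in the 14 nuclei and 226 in the others. Tbx5 was at 786 CPM in the 14 nuclei and 70.7 CPM in the rest. Their median depth was 5217.5 UMIs, below the 9101.5 of the rest, and Ttn, Ryr2 and Myh6 made up a median of 5.04% of their UMIs. The labels give the tissue as left ventricle.

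Summed over all cardiomyocyte nuclei, the 10 atrial markers gave 1278 and 1335 CPM in WT-CD, 1451 and 1614 in R403Q-CD, then 2825 and 1591 in R403Q-EMPA. Kcnj3 and Pam made up most of this sum in every library but R403Q-EMPA replicate 1, where Nppa did. Nppa was at 59.6 and 34.6 CPM in WT-CD, 143 and 233 in R403Q-CD, then 1498 and 361 in R403Q-EMPA. The marker lists were chosen with earlier results of these data known, so calls of list genes are given as a description. Of the 7 atrial markers that edgeR tested, 0 were called for R403Q-CD against WT-CD, 0 for R403Q-EMPA against R403Q-CD and 2 for R403Q-EMPA against WT-CD, beside the 3.90% of all genes. These were Nppa, with a log2 difference of 4.23 ± 0.57 (SE, adjusted p = 0.0065), and Dkk3, with 2.71 ± 0.63 (adjusted p = 0.0460). The UMIs of Dkk3 numbered 2 and 2 for WT-CD, 4 and 2 for R403Q-CD, then 58 and 14 for R403Q-EMPA, so WT-CD lay under the limit of 3 UMIs, and the fitted difference depends on the prior count and is no bound. Dkk3 passed the filter on low counts only through R403Q-EMPA, so its call adds nothing. The call of Nppa held in all 18 alternative settings, with a log2 difference of 2.93 without R403Q-EMPA replicate 1 and 4.90 without replicate 2, and that of Dkk3 in 9 of them, and without R403Q-EMPA replicate 1 Dkk3 was at 1.70 with an adjusted p of 0.342. Where a library is left out, its group has 1 library and the spread comes from the other groups alone. None of the 8 ventricular markers was called in any comparison, and their summed level was 10860 to 11794 CPM in WT-CD, 9428 to 9655 in R403Q-CD and 8968 to 9302 in R403Q-EMPA.

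Among genes that are not members, those most like Myl7, Myl4 and Sln summed were found by the Pearson correlation of log values across cardiomyocyte nuclei within a library, averaged over the 6 libraries and over 11998 genes seen in at least 1% of nuclei of each. Lmntd1 came first with a mean r of 0.142, followed by Cacna1d, the pore subunit of an L-type calcium channel of atrial and pacemaker cells, with 0.0975. The next 8 were Adamts19, Ryr3, Tbc1d1, Rgs6, Gm35041, Grip1, Cntn3 and Fras1, with 0.0707 to 0.0808. Correlations this weak in sparse counts are no finding, and most of the likeness of Lmntd1 came from R403Q-EMPA replicate 1, at 0.518, against -0.0247 to 0.220 in the other 5 libraries. Tbx5 ranked 118 of these genes, Myh7 3290 and Acta1 8038.

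Most Tpm2 UMIs lay outside the nuclei with at least 2 of the atrial genes. In R403Q-EMPA, 98 of 1564 and 40 of 1613 cardiomyocyte nuclei had a Tpm2 UMI, of which 12 and 8 had 5 or more and held 41.2% and 53.3% of the Tpm2 UMIs. In replicate 1, a Tpm2 UMI was found in 13.2% of the 38 nuclei with a Myl7 UMI and in 6.09% of those without, and in replicate 2 in 0 of 3 and in 2.48%. Acta1 was found with Tpm2 more often than without it. In replicate 1, 52.0% of nuclei with a Tpm2 UMI had an Acta1 UMI against 24.1% of those without, and in replicate 2 it was 45.0% against 10.5%. Median depths were 9861 UMIs with and 8993 without Tpm2 in replicate 1, and 7661.5 and 6831 in replicate 2.

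Of the 12 other fetal and stress genes listed, 10 were above 10 CPM in both R403Q-EMPA libraries, and 7 of these were at a higher level in nuclei with a Tpm2 UMI than in those without in both (Ankrd1, Ccn2, Flnc, Nppb, Ryr3, Xirp1 and Xirp2), with 0 lower in both. Of all 7677 genes above 10 CPM in both libraries, 27.9% were higher in both and 32.1% lower in both. This split was not tested, and the genes given with values were chosen after these were seen. Ryr3, a ryanodine receptor of skeletal and smooth muscle, was at 999 CPM with Tpm2 and 170 without in replicate 1, and at 667 and 28.7 in replicate 2. Nppa was at 3317 and 1355 CPM in replicate 1 and 2275 and 304 in replicate 2. Ankrd1, a cardiac ankyrin repeat protein induced by stretch, was at 1144 and 532 CPM, then 832 and 243, and Nppb, the B-type natriuretic peptide, at 225 and 112, then 266 and 110. Myl2 lay close, at 824 and 866 CPM in replicate 1 and 985 and 968 in replicate 2. Atp2a2, the SERCA pump of heart muscle, was lower with Tpm2, at 2529 and 3298 CPM, then 2403 and 3555. In WT-CD and R403Q-CD only 7 to 13 nuclei per library had a Tpm2 UMI, which is too few to describe.

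**Figure D4:**
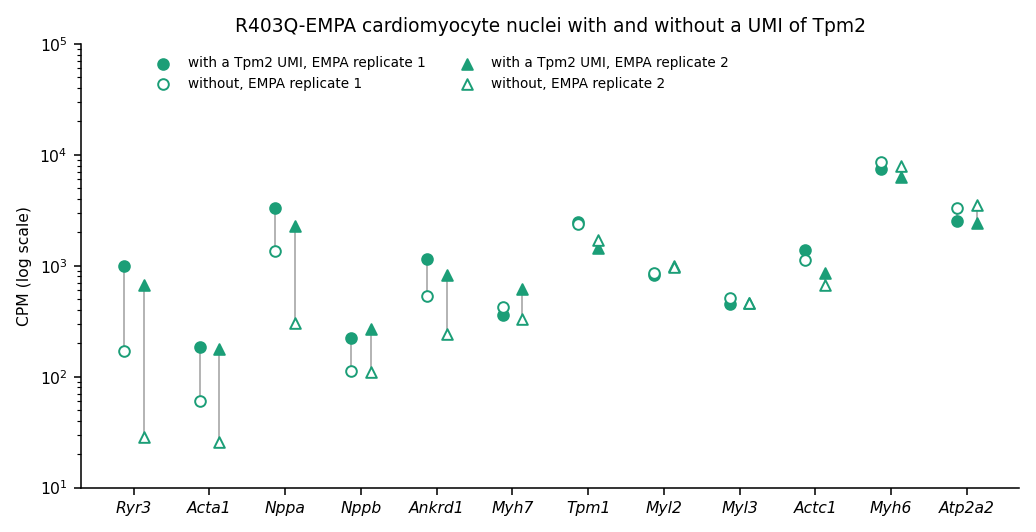
Level of 12 genes (CPM, log scale) in R403Q-EMPA cardiomyocyte nuclei with a UMI of Tpm2 (filled) and without (open), with circles for replicate 1 and triangles for replicate 2. Ryr3, Acta1, Nppa, Nppb and Ankrd1 are higher in nuclei with Tpm2 in both libraries, whereas Myl2 and Myl3 lie close together.

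Smooth muscle also makes Tpm2, so its markers were read in the same nuclei. In the other nuclei, Tpm2 was at 113 to 134 CPM in those richest in smooth muscle and pericyte markers and at 1.16 to 5.12 CPM in those richest in endothelial markers. Within cardiomyocyte nuclei the 9 smooth muscle and pericyte markers summed to 401 and 429 CPM in WT-CD, 381 and 428 in R403Q-CD, then 269 and 325 in R403Q-EMPA. Cnn1 was at 0 in 1 WT-CD and 1 R403Q-CD library. Of the 8 tested, 1 was called, for R403Q-EMPA against WT-CD, beside 3.90% of all genes, and it fell. This was Acta2, the smooth muscle actin, at 56.5 and 75.5 CPM in WT-CD, 41.0 and 77.1 in R403Q-CD, then 30.2 and 12.1 in R403Q-EMPA. Its log2 difference for R403Q-EMPA against WT-CD was -1.71 ± 0.39 (SE), with an adjusted p of 0.0435 by edgeR. That call was lost in 6 of 18 alternatives, among them those without WT-CD replicate 2 (adjusted p = 0.129), without R403Q-EMPA replicate 2 (0.128) and with the mitochondrial limit alone lifted (0.348). When the 34 to 75 nuclei per library with UMIs of at least 2 of these markers other than Abcc9 were left out, Tpm2 was at 1.90 and 1.48 CPM in WT-CD, 1.87 and 1.34 in R403Q-CD, then 16.2 and 9.03 in R403Q-EMPA. The nuclei left out had 28.3 CPM of Tpm2 in R403Q-EMPA replicate 1, with a Tpm2 UMI in 13 of 71, and 11.4 CPM in replicate 2, with one in 3 of 34. In R403Q-EMPA replicate 1, nuclei with a Tpm2 UMI had 57.3 CPM of Myh11, the smooth muscle myosin, against 1.65 without, while in replicate 2 it was 0 against 1.78. The part of smooth muscle RNA in the Tpm2 difference was not tested.

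Of the other lists, 1 of 9 conduction system markers tested was called for R403Q-EMPA against WT-CD, beside 3.90% of all genes. Cntn2, which marks Purkinje fibres, had UMIs numbering 1 and 2 for WT-CD, 7 and 11 for R403Q-CD, then 97 and 32 for R403Q-EMPA, or 0.118, 0.229, 0.690, 0.937, 6.75 and 2.77 CPM in that order. The log2 difference for R403Q-EMPA against WT-CD was 3.74 ± 0.56 (SE, edgeR adjusted p = 0.0097), and with WT-CD under the limit of 3 UMIs its size depends on the prior count and is no bound. Cntn2 passed the filter on low counts only through R403Q-EMPA, so its call adds nothing. Its call was lost without R403Q-EMPA replicate 1 (adjusted p = 0.0589) and with doublets kept (0.0506). In R403Q-EMPA replicate 1, 57 of 97 Cntn2 UMIs were in nuclei with a Tpm2 UMI, and in replicate 2 it was 0 of 32. The 8 skeletal muscle markers, which bear on Acta1 and Tpm2 because skeletal muscle also uses both, summed to 0.296 to 0.606 CPM and none had enough UMIs to be tested. Myh1 and Myh4 were at 0 in every library.

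Of 10 other fetal and stress genes tested, 3 were called for R403Q-EMPA against WT-CD, beside 3.90% of all genes, and 0 in the other comparisons. This list too was chosen with earlier results known, and the alternative settings reuse the same 6 libraries, so the calls are a description. Nppb lay at 29.1 and 25.7 CPM in WT-CD, 39.3 and 72.9 in R403Q-CD, then 120 and 114 in R403Q-EMPA, a log2 difference of 2.03 ± 0.24 (SE) with an edgeR adjusted p of 0.0044 that held in all 18 alternatives. Flnc, the muscle filamin, lay at 63.9 and 64.3, 69.2 and 101, and 178 and 139 CPM, a log2 difference of 1.23 ± 0.19 with an adjusted p of 0.0107, which was 0.0709 without R403Q-EMPA replicate 1. The third was Acta2, which fell as given above. Tnni1, the fetal troponin I, gave 1 UMI in the cardiomyocyte nuclei of all 6 libraries together. None of the 18 adult sarcomere genes, 16 cardiac transcription factors, 5 genes of SERCA and its regulators, 8 endothelial, 4 endocardial, 3 epicardial or 6 myeloid markers that were tested was called in any comparison, and of the 15 other myosin, actin and tropomyosin isoforms 1 was, again Acta2. Among 7 fibroblast markers 1 was called for R403Q-EMPA, beside 0.207% of all genes against R403Q-CD and 3.90% against WT-CD. It was the transporter Abca8a, at 41.3 and 33.0 CPM in WT-CD, 38.6 and 45.1 in R403Q-CD, then 15.2 and 18.3 in R403Q-EMPA. Its log2 difference was -1.36 ± 0.17 (edgeR adjusted p = 0.0248) against R403Q-CD, a call lost without R403Q-CD replicate 1 (0.0871), R403Q-CD replicate 2 (0.139) or R403Q-EMPA replicate 1 (0.210), and with doublets kept (0.107), and -1.20 ± 0.17 (adjusted p = 0.0084) against WT-CD, lost without R403Q-EMPA replicate 1 (0.0679). With the mitochondrial limit alone lifted Abca8a stayed called at -1.19 (adjusted p = 0.0184) and -0.57 (0.0327), but not where doublets were called anew as well (0.534 and 0.833).

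In the nuclei that are not cardiomyocyte nuclei, the 7 genes were read as well. Myl7 was at 2.07 and 0.501 CPM in WT-CD, 1.08 and 0.450 in R403Q-CD, then 4.69 and 0.581 in R403Q-EMPA. In R403Q-EMPA replicate 1 it lay at 3.21 to 6.66 CPM in the nuclei richest in smooth muscle, fibroblast, endothelial and myeloid markers, from 4, 50, 46 and 6 UMIs in that order. All these levels were above the 1.96 CPM left in its cardiomyocyte nuclei without the 14. Single nuclei outside the cardiomyocyte rule held up to 12 Myl7 UMIs in WT-CD replicate 1 (of 48), 13 in R403Q-CD replicate 1 (of 24) and 16 in R403Q-EMPA replicate 1 (of 108), so nuclei rich in Myl7 were not limited to R403Q-EMPA, nor were these UMIs spread evenly. With nuclei thinned to 1000 UMIs, a Myl7 UMI was found in 0.706% of cardiomyocyte and 0.433% of other nuclei of that library, and in 0.105% and 0.0310% in replicate 2. Sln gave 13 UMIs in the other nuclei of R403Q-EMPA replicate 1 and none in those of the 5 other libraries. Myl4 in the other nuclei was at 4.41 and 3.78 CPM in WT-CD, 5.77 and 4.79 in R403Q-CD, then 7.69 and 6.06 in R403Q-EMPA, so it was highest in both R403Q-EMPA libraries there too and its difference was not limited to cardiomyocyte nuclei. Thinned in the same way, a Myl4 UMI was found in 1.17% of cardiomyocyte and 0.678% of other nuclei of R403Q-EMPA replicate 1, and in 0.537% and 0.545% in replicate 2, where the share in cardiomyocyte nuclei was thus no higher. In WT-CD it was 0.433% and 0.496% of cardiomyocyte beside 0.423% and 0.345% of other nuclei, and in R403Q-CD 0.454% and 0.464% beside 0.508% and 0.428%. The cardiomyocyte share was thus below that of the other nuclei in R403Q-CD replicate 1, and about equal to it in WT-CD replicate 1. For Myl7 and Myl4, a share of cardiomyocyte nuclei at or below that of the other nuclei is not read as expression.

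Tpm2 summed over the other nuclei gave 23.4 and 19.9 CPM in WT-CD, 18.4 and 18.7 in R403Q-CD, then 14.3 and 17.7 in R403Q-EMPA, lower in each group than in the one before. Nuclei richest in smooth muscle and pericyte markers, which held the most Tpm2, had 119 and 121 CPM of it in WT-CD, 115 and 113 in R403Q-CD, then 134 and 131 in R403Q-EMPA, highest in the last. These nuclei numbered 1143 and 862, 734 and 685, and 389 and 520 in the same order. Acta1 in other nuclei followed the cardiomyocyte nuclei at a lower level, with 7.52 and 3.35 CPM in WT-CD, 15.7 and 12.7 in R403Q-CD, then 26.6 and 13.6 in R403Q-EMPA. Myh7 was at 21.4 to 27.9 CPM in WT-CD and 32.5 to 37.7 in the libraries with the mutation. Tbx5 was at 1.71 to 2.70 CPM in WT-CD and R403Q-CD and at 6.56 and 4.73 in R403Q-EMPA, far under the 58.0 to 84.0 of cardiomyocyte nuclei.

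The limit of 5% mitochondrial UMIs per nucleus weighed on several of these genes. Above it lay 225 and 680 nuclei of WT-CD that met the cardiomyocyte rule, 2209 and 2433 of R403Q-CD, and 2672 and 1300 of R403Q-EMPA. Levels in them are given after scrublet was run anew over all nuclei, which took 11 to 134 of them as doublets in 5 libraries but called no nucleus of R403Q-EMPA replicate 1, so it did not work there. The nuclei left had medians of only 846 to 921 UMIs. In these nuclei Acta1 was at 156 and 116 CPM in WT-CD, 679 and 226 in R403Q-CD, then 360 and 287 in R403Q-EMPA, several times the level in the nuclei kept. With the limit lifted and the doublet calls below it kept as they were, a setting chosen after seeing the data, the log2 difference of Acta1 was 2.17 ± 0.36 (SE) for R403Q-CD against WT-CD in place of 0.88, and -0.42 ± 0.34 for R403Q-EMPA against R403Q-CD in place of 0.39. Tpm2 in the removed nuclei stood in another order, highest in WT-CD at 19.5 and 15.7 CPM, then 14.4 and 14.9 in R403Q-EMPA and lowest in R403Q-CD at 9.36 and 13.2, from 5 to 46 UMIs per library. With the limit lifted its log2 difference for R403Q-EMPA against R403Q-CD was 1.70 ± 0.28 in place of 2.87. Myh7 was at 969 to 1550 CPM and Tbx5 at 3.91 to 48.4 CPM in the removed nuclei, so these shallow nuclei differed from those kept in both directions.

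**Figure D5:**
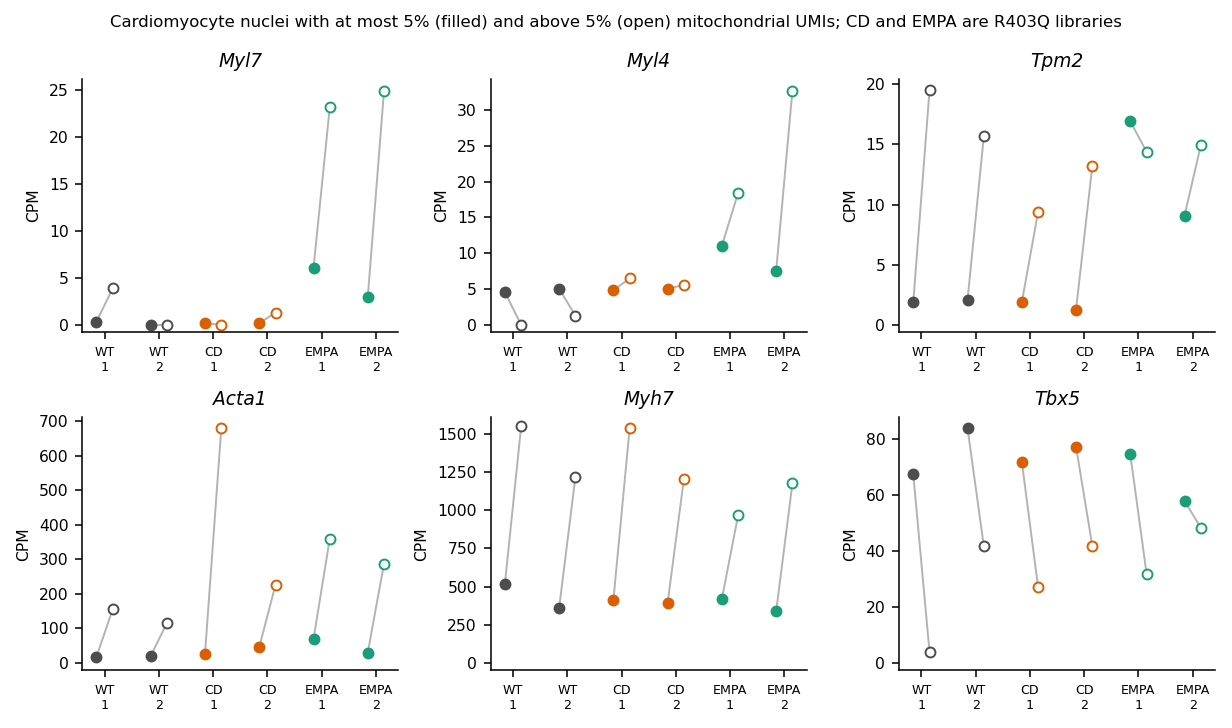
CPM of 6 genes (vertical axis, linear) in cardiomyocyte nuclei with at most 5% (filled) and above 5% (open) mitochondrial UMIs in each library (horizontal axis), joined by a line. Acta1 and Myh7 are higher and Tbx5 lower above the limit in every library, and Tpm2 above the limit lies between 9.36 and 19.5 CPM in all groups.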

How the data were processed

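Nuclei were isolated from frozen left ventricle and sequenced on a droplet platform, with 2 libraries per group and no batch named in the labels. Each library came from the authors as a deposited, filtered table of UMI counts, whole numbers per gene and barcode. Per the submitters' processing notes Cell Ranger 8.0.1 and the build GRCm39 were used. Whether intronic reads were counted is not given in the sources used here. Total counts were 31787308 to 45397128 UMIs per library. Barcodes with at least 500 UMIs, at least 300 genes and at most 5% mitochondrial UMIs were kept, and doublets predicted by scrublet (scanpy 1.11.5), 3.74% to 6.63% per library, were removed. The genes and lists were chosen with earlier results of these data known. The 7 genes were named always, with their ventricular counterparts, list genes that were called, and the 10 genes most like Myl7, Myl4 and Sln.

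Counts were summed per library over cardiomyocyte nuclei, filtered with filterByExpr, scaled by TMM and fitted with the quasi-likelihood test of edgeR 4.0.16 in R 4.3.3, all 6 libraries in 1 fit with 3 residual degrees of freedom and Benjamini-Hochberg adjustment over all genes tested. A p-value measures only the spread between these libraries. Tested on simulated counts with 200 of 14496 genes changed, the step recovered 63%, 57% and 50% of 2-fold and 86%, 90% and 87% of 4-fold changes for mutation against WT-CD, treatment against R403Q-CD and treatment against WT-CD, in that order, with false calls making up 5.70%, 5.16% and 1.44%. The simulated spread followed the fitted trend alone, with no added spread of single genes or libraries, so these shares do not give the recovery in the real counts. Thinned shares are expected values of a draw without replacement. Alternatives were another scaling, DESeq2 1.42.0, no low-count filter, other limits on nuclei, and each library left out. Nuclei were processed in Python 3.11.15 with scipy 1.17.1 and numpy 2.4.6, and figures drawn with matplotlib 3.10.9. Promoter windows came from RefSeq (GRCm38.p6), which is not the build of the counts.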

Additional observations from a re-analysis of the deposited data

Results flagged for a closer look

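Cardiomyocyte nuclei above the limit of 5% mitochondrial UMIs are outside the main measurement, and they too held nuclei with UMIs of at least 2 of Myl7, Myl4 and Sln. These numbered 11 of 2672 in R403Q-EMPA replicate 1 and 9 of 1209 in R403Q-EMPA replicate 2, beside 0 in each WT-CD and R403Q-CD library, which by counting error alone allows a share of up to 0.129% to 1.40% per library in nuclei this shallow. They held 67.6% and 82.9% of the Myl7 UMIs of the removed nuclei of their libraries. Myl7 in the removed nuclei was at 3.91 and 0 CPM in WT-CD, 0 and 1.32 in R403Q-CD, then 23.1 and 24.9 in R403Q-EMPA, the last from 74 and 35 UMIs, and Myl4 was at 18.4 and 32.7 CPM in R403Q-EMPA against 0 to 6.51 in the other 4 libraries. Doublets were called over all nuclei here, and none was called in R403Q-EMPA replicate 1, so doublets may remain among its nuclei. The removed nuclei come from the same 6 libraries, so they are not an independent sample of the groups.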

How the results depend on the processing

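The number of genes called by edgeR in cardiomyocyte nuclei depended on the settings. For R403Q-CD against WT-CD (9 genes) it was 300 with no low-count filter, 98 with DESeq2, 20 at a cardiomyocyte threshold of 3%, 439 with no mitochondrial filter and 581 with that limit alone lifted, 14 with doublets kept, 18 without nuclei with smooth muscle markers (a setting chosen after seeing the data), and 0 to 18 with 1 library left out. For R403Q-EMPA against R403Q-CD (30 genes) it was 623 with no low-count filter, 214 with DESeq2, 5 with no mitochondrial filter and 36 with that limit alone lifted, and 0 to 149 with 1 library left out, the lowest without R403Q-CD replicate 2 and the highest without WT-CD replicate 2. For R403Q-EMPA against WT-CD (565 genes) it was 1431 with no low-count filter, 862 with no mitochondrial filter and 1137 with that limit alone lifted, and 106 to 759 with 1 library left out, the lowest without R403Q-EMPA replicate 1. With no mitochondrial filter, doublets were called anew over all nuclei, which found 0% in R403Q-EMPA replicate 1 and 4.90% to 6.95% in the other libraries, so the limit alone was also lifted, with the doublet calls below it kept (chosen after seeing the data). For the other changes the cause was not tested. Where a library was left out, its group had 1 library, which was assumed to vary like the libraries of the other groups. No paired analysis was possible because the labels number the libraries from 1 to 6 and tie no library of one group to one of another, so replicates 1 and 2 are only names. With 2 libraries per group, few UMIs of Myl7 and Sln, and a single library that held most of their nuclei, the data limit these genes to a description.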
